A study of Mus musculus with 2 samples.

Results

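Open chromatin at the genes of the protein tyrosine phosphatases (PTPs) was examined in regulatory T (Treg) cells with and without the pentose phosphate enzyme transketolase (Tkt). A peak was a member when the gene assigned to it by the authors was named Ptpn followed by a number (non-receptor PTPs) or Ptpr followed by a letter and at most 1 digit (receptor PTPs). This gave 55 of 34440 peaks in the WT library, at 23 of 19215 assigned genes, and 33 of 19680 peaks in the cKO library, at 20 of 14043 genes. RefSeq lists 38 mouse genes with such names, 21 receptor and 17 non-receptor. The assay was ATAC-seq, in which the Tn5 transposase inserts sequencing adapters into accessible DNA.

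Both groups were CD4+CD25+YFP+ Treg cells taken by cell sorting from the lymph nodes and spleen of C57BL/6 females at 7 weeks of age, with 50000 cells per reaction and no treatment. The WT group came from Foxp3cre/+ mice and the TKT cKO group from Foxp3cre/+ TKTfl/fl mice, so both carried Cre driven from a single Foxp3 allele, and the labels call the mice chimeric. Whether cells of several mice were pooled is not given in the sources used here. There was 1 library per genotype. Every difference below therefore compares those libraries, without a replicate check and without a p-value.

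PTPs remove phosphate from tyrosine residues and so oppose tyrosine kinases. In T cells, CD45 (Ptprc) removes the inhibitory phosphate of the kinases Lck and Fyn, while Ptpn22, together with the kinase Csk, acts against Lck and Zap70. Ptpn2 limits JAK and STAT signalling, which the IL-2 receptor uses in Treg cells, and the SH2 domain phosphatases SHP-1 (Ptpn6) and SHP-2 (Ptpn11) are recruited by phosphorylated receptors and adaptors. Many other receptor PTPs are known as adhesion or guidance proteins of neurons, epithelium and endothelium.

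The promoters shown here are those where the presence of a peak and the base composition can be compared. They are RefSeq windows of 300 bases around the gene start in GRCm38.p6, the assembly behind mm10, printed 5′ to 3′ on the strand of the gene with every CpG dinucleotide in capitals. Ptprc and Ptpn22 are CpG-poor promoters with a peak in both libraries, Ptpn1 and Ptpn4 are CpG-rich ones with a peak in both, Ptprt is CpG-rich with no peak, and Ptpn6 is CpG-poor with no peak.
Ptprc (chr1:138175256-138175555, strand -): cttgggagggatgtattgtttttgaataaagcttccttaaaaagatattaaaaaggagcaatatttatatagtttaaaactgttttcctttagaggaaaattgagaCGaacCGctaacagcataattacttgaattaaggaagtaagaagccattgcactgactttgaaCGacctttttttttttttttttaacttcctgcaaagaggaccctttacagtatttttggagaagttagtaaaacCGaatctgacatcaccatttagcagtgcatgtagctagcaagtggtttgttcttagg
Ptpn22 (chr3:103860027-103860326, strand +): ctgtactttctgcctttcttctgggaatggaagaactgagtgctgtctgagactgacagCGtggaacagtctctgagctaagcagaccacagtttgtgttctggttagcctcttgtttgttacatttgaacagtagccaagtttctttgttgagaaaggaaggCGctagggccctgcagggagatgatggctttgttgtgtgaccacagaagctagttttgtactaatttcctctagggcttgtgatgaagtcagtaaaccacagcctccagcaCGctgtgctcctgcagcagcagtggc
Ptpn1 (chr2:167932077-167932376, strand +): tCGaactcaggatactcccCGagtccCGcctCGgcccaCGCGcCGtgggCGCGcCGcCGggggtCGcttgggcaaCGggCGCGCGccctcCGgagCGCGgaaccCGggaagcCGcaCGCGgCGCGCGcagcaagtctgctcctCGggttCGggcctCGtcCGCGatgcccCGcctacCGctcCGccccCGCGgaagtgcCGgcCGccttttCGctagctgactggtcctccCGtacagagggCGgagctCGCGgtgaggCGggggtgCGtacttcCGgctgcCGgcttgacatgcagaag
Ptpn4 (chr1:119837022-119837321, strand -): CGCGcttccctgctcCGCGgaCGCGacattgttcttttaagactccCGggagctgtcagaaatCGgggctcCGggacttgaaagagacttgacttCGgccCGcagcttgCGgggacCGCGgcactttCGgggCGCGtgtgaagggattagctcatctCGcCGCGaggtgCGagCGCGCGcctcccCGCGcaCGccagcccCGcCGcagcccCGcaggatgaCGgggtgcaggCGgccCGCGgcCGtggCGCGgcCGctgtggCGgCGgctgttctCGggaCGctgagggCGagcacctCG
Ptprt (chr2:162661098-162661397, strand -): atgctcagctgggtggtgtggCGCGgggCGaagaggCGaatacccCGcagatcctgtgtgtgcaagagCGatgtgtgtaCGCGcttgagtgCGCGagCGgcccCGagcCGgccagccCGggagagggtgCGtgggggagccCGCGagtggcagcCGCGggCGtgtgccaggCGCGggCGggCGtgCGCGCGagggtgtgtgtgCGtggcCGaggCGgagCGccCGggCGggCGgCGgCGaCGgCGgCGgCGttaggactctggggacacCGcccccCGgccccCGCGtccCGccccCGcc
Ptpn6 (chr6:124738660-124738959, strand -): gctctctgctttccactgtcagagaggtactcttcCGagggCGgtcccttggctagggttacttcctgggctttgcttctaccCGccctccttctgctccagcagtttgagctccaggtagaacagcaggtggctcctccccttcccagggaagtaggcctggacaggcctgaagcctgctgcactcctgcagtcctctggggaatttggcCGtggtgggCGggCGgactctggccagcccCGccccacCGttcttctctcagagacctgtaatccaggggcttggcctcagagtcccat

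The Ptprc window above held 4 CpG dinucleotides at 33.7% GC and the Ptpn22 window 3 at 48.7% GC. In contrast, the window of Ptpn1, which encodes PTP1B, held 47, and that of Ptpn4, a PTP with FERM and PDZ domains, held 44. Ptprt, a homophilic adhesion PTP of neurons, had 46 CpG dinucleotides, about as many as the open Ptpn1 and Ptpn4 windows, and no peak in either library. The Ptpn6 window had 8 at 61.7% GC.

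Peaks called in each library lay at most non-receptor genes and at fewer of the receptor genes. A WT peak was assigned to 15 of 17 Ptpn genes and 8 of 21 Ptpr genes, against 52.5% of 21896 RefSeq protein-coding symbols. In the cKO library 13 Ptpn and 7 Ptpr genes had a peak, against 42.5% of the same symbols. The Ptpn genes without an assigned peak were Ptpn6 and Ptpn20, a PTP of testis. The 13 Ptpr genes without one were Ptprb (VE-PTP of endothelium), Ptprd, Ptprg, Ptprh, Ptprk, Ptprm, Ptprn, Ptprn2, Ptpro, Ptprq, Ptprr, Ptprt and Ptprz1, among them adhesion PTPs of neurons (Ptprd, Ptprt), a podocyte PTP (Ptpro), a hair cell PTP (Ptprq), a glial PTP (Ptprz1) and the granule proteins Ptprn and Ptprn2. No member had a peak in the cKO library alone. Of all cKO peaks, 97.6% were overlapped by a WT peak, and the share over genes was not taken.

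The median number of WT peaks per gene with a peak was 2 in both classes. Ptpn1 had 8, a number reached by 1.48% of the protein-coding symbols with a WT peak. Ptprs, an adhesion PTP that binds proteoglycans, had 6, and Ptprj (CD148) and Ptpn13 (PTP-BAS, a large PTP with FERM and PDZ domains) had 5 each. Ptpre, a PTP with receptor and cytosolic forms, followed with 4 and Ptpn22 with 3. Ptprc, Ptprf, Ptpn2, Ptpn9, Ptpn12, Ptpn14 and Ptpn18 had 2, and the 10 other genes had 1. In all, 4 of 23 genes had 5 or more WT peaks, against 5.44% of protein-coding symbols with a WT peak. A promoter class peak, within 3 kb of a start site, was present in WT at 20 of the 23 genes, against 86.8% of those symbols, and in cKO at 19 of 20, against 90.0% of those with a cKO peak.

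**Figure D1:**
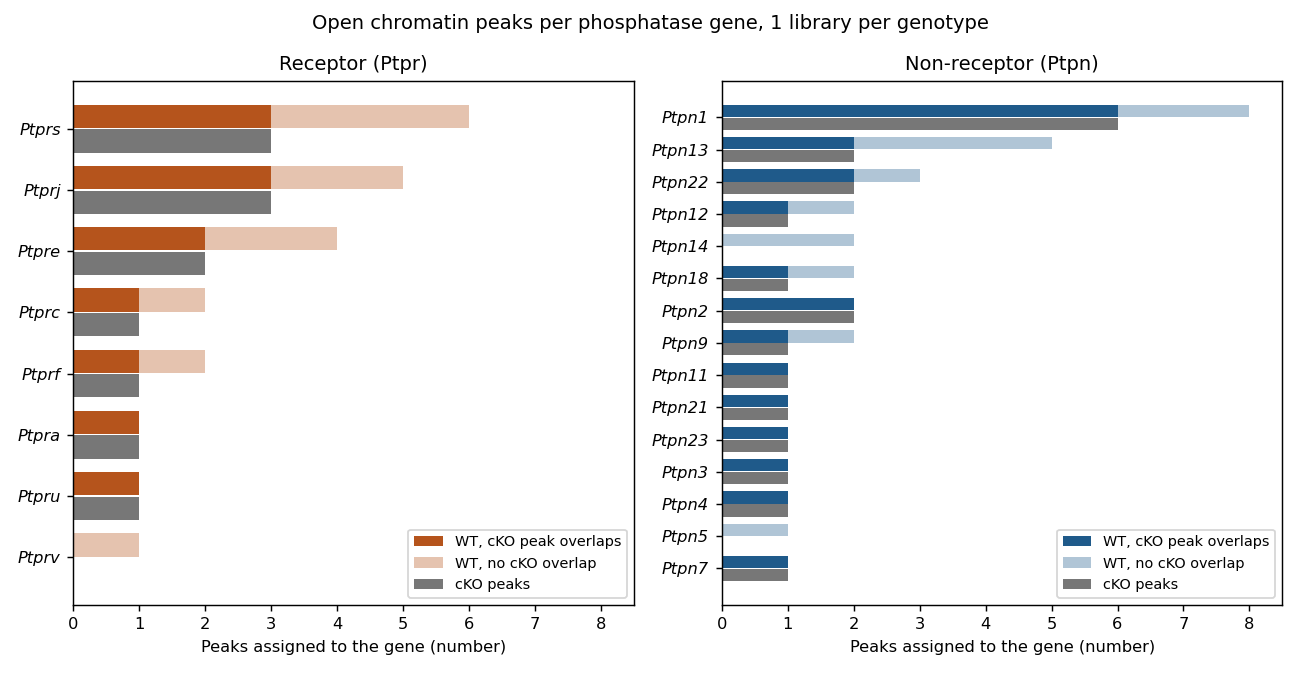
Number of peaks assigned to each phosphatase gene (x axis), with WT peaks in colour (dark where a cKO peak overlaps by at least 1 bp, pale where none does) and cKO peaks in grey, for receptor genes on the left and non-receptor genes on the right. Ptpn1 had 8 WT and 6 cKO peaks, and Ptpn5, Ptpn14 and Ptprv had no cKO peak.

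The promoter windows gave the same split between classes without relying on the assigned gene. Of the 38 genes, 32 had 46 windows in the RefSeq table, some of them overlapping starts of the same gene. Ptpn2, Ptpn12, Ptprb, Ptprd, Ptprq and Ptprv had none. A WT peak overlapped 14 of 19 Ptpn windows and 7 of 27 Ptpr windows, and a cKO peak overlapped 13 and 6. The share over all 32851 RefSeq windows was 37.1% in WT and 31.9% in cKO.

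Windows were called CpG-rich when the ratio of observed to expected CpG exceeded 0.6 and GC content exceeded 50%. Among CpG-rich windows, a WT peak overlapped 9 of 11 of the Ptpn class but only 4 of 14 of the Ptpr class, against 79.1% of 10935 CpG-rich windows in the genome. The 4 receptor windows belonged to Ptpra, Ptpre, Ptprs and Ptpru. CpG-rich receptor windows without a peak included those of Ptprf (ratio 1.05), Ptprg (1.03), Ptprk (0.90), Ptprm (0.88) and Ptprt (1.06). The CpG-rich Ptprj window had no peak within it, but WT peaks lay on both sides of it, within 1 kb of the start. A cKO peak overlapped 12 of the 25 CpG-rich member windows (71.6% of all) and 7 of the 21 CpG-poor ones (12.1% of all). CpG-poor windows were overlapped in 8 of 21 cases, against 16.2% of 21916 in the genome. Of these 8, 6 belonged to Ptprc, Ptpn22 and Ptpn7, genes with known roles in lymphocytes, at 2 starts each that lay under the same peak. Ptpn7 encodes HePTP, which acts on the MAP kinases ERK and p38.

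**Figure D2:**
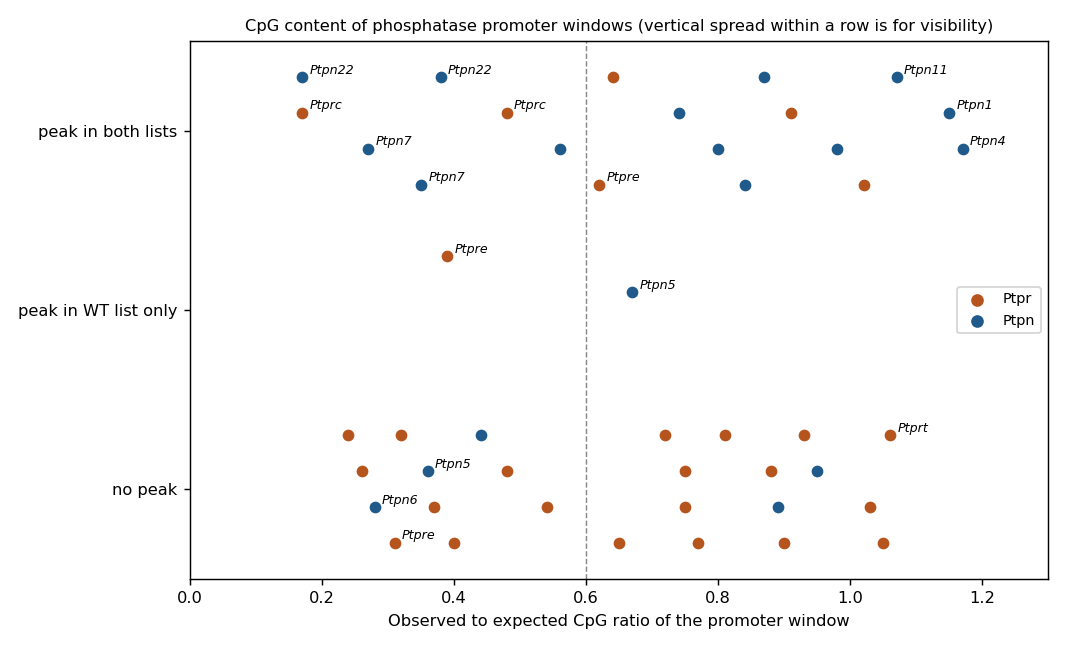
Observed to expected CpG ratio (x axis) of the 46 promoter windows, by whether a peak in both lists, in the WT list only or in neither overlapped them; each point is a window, coloured by class, and the dashed line marks 0.6. Windows with a peak in both lists run from Ptprc and Ptpn22 at 0.17 to Ptpn4 at 1.17, and windows without a peak run up to Ptprt at 1.06.

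Starts of the same gene differed. Ptpre had 3 windows: the outermost, at chr7:135537574-135537873, was overlapped in both libraries, the next by no peak, and the innermost, at chr7:135605578-135605877, in WT alone and only at its edge. The outermost Ptprs start, at chr17:56476431-56476730, had none in the window, while the inner start at chr17:56462172-56462471 lay under a peak in both libraries, at percentile 98.9 in WT. Here and below, a percentile is the share of peaks in the WT list with a score no higher than that peak's. Ptpn21, a FERM domain PTP, likewise had a peak in both libraries at its inner start (percentile 39.6 in WT) and none at the outer start.

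Short motif letters were counted in the windows on both strands, each motif on its own. The ETS core GGAA was in 44 of 46 member windows and in 96.0% of all windows. TGTGGT, the RUNX motif, was in 6 of 46 and in 16.8% of all windows, with 3 matches in the Ptpn22 window printed above, at chr3:103860027-103860326. The GC box GGGCGG was in 25 of 46 member windows and in 35.7% of all windows. It was in 13 of the 21 member windows with a WT peak and 12 of the 25 without. Over all windows with a WT peak the share was 65.5%, and over those without a peak it was not taken. CCAAT, bound by NFY, was in 10 of 46 windows (37.4% of all) and the AP-1 letters TGANTCA in 2 (7.81%). The forkhead letters GTAAACA were in 4 (3.65% of all), namely 1 of the 21 with a WT peak and 3 of the 25 without. Overlapping Ptprr windows among the latter held the same match. A match describes the letters and is not a measured binding site.

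WT peaks of the PTP genes were overlapped by a cKO peak about as often as other WT peaks. The overlap held for 33 of 55 peaks (60.0%, Wilson 95% interval 46.8 to 71.9), against 56.1% of all WT peaks. WT peaks of the same annotation group (promoter class or other) and the same score decile gave 56.2%. All 33 cKO peaks of the PTP genes were overlapped by a WT peak (interval 89.6 to 100), against 97.6% of all cKO peaks. The depth of sequencing is unknown, so absence of a peak and a signal too weak to be called cannot be told apart. Fewer cells with an open region and less opening per cell cannot be told apart either. The WT list was also reduced to its strongest peaks, as many as the cKO list holds. Of the PTP WT peaks left, 30 of 32 had a partner (93.8%, 79.9 to 98.3), an interval that includes the 83.0% of all. No share of like peaks was taken for this setting.

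Promoter class peaks were shared more often than the others. The values were 21 of 28 (75.0%, 56.6 to 87.3) and 12 of 27 (44.4%, 27.6 to 62.7), a gap of 30.6 points (Newcombe interval 4.68 to 51.4). Over all WT peaks, 74.3% of promoter peaks and 41.4% of the others were shared.

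Non-receptor genes shared 21 of 33 WT peaks (63.6%, 46.6 to 77.8) and receptor genes 12 of 22 (54.5%, 34.7 to 73.1). The difference of 9.09 points had an interval of −16.1 to 33.5 and turned to −9.52 with equal numbers of peaks, so no direction between the classes is read from it. At promoters the shares were 13 of 15 and 8 of 13, with 25.1 points between them (−7.02 to 52.9), and elsewhere both were 44.4%. WT peaks of like group and score gave 80.7% for the Ptpn and 54.8% for the Ptpr promoter peaks. Scores differed in the same way: the median percentile of the promoter peaks was 72.0 for Ptpn and 44.8 for Ptpr.

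**Figure D3:**
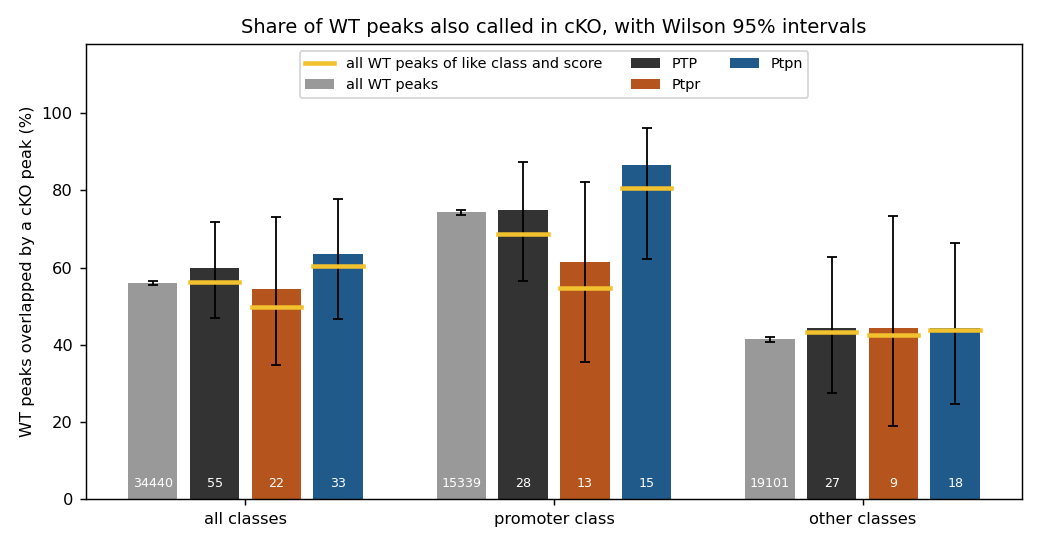
Shared WT peaks in percent (y axis) for all WT peaks, all phosphatases (PTP), receptor (Ptpr) and non-receptor (Ptpn) genes, over all peaks and by annotation group; error bars are Wilson 95% intervals, white numbers are the peaks behind each bar, and yellow lines are the share of all WT peaks of like annotation group and score. Every phosphatase interval includes its yellow line.

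Annotation classes were counted for both kinds of gene, without a test of the difference. The promoter class held 15 of 33 Ptpn peaks (45.5%) and 13 of 22 Ptpr peaks (59.1%), against 44.5% of all WT peaks. Restricted to 1 kb from a start site, the shares were 42.4% and 40.9%, against 38.1%. First introns held 8 of 33 Ptpn peaks, 5 of them in Ptpn1, and 2 of 22 Ptpr peaks, against 9.47% of all. Distal intergenic peaks made up 5 of the 55, 9.09%, against 20.6% of all WT peaks.

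Shared peaks stood higher within the WT list than unshared ones by median, though the ranges overlapped. Shared PTP peaks had a median percentile of 66.2 and ran from 27.2 to 99.4, and unshared ones had a median of 16.4 and ran from 0.491 to 51.5. None of the 23 PTP peaks in score deciles 7 to 10 lacked a cKO partner, and all 15 peaks in deciles 1 and 2 lacked one. Genome-wide, 83.7%, 94.7%, 98.8% and 99.5% of deciles 7, 8, 9 and 10 were shared, and 6.68% and 14.0% of deciles 1 and 2. The median width was 701 bp for unshared and 1247 bp for shared PTP peaks, and 3 of the 22 were narrower than any cKO peak. The top decile, which holds 10.0% of all WT peaks, held 4 of the 55, at Ptpn1, Ptpn2, Ptpn4 and Ptprs.

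A percentile in the WT list and one in the shorter cKO list cannot be compared, since the cKO list lacks most of the weakest regions. The 19313 WT peaks with a cKO partner were therefore ranked, from 0 to 100, by their WT score and again by the score of their partner. These pair ranks are used wherever the libraries are set side by side. Of the 33 PTP pairs, 3 ranked lower in cKO by over 20 points and none higher, against 5.70% and 6.67% of all pairs. The 3 were the promoter peak of Ptpn11 (rank 32.2 in WT and 2.95 in cKO), a peak 4209 bp upstream of Ptprf, an adhesion PTP also called LAR (48.8 and 22.6), and a peak in exon 2 of Ptprj (40.0 and 18.2). The largest shift upwards was at the Ptpn22 promoter, from 76.5 to 92.5. Over the PTP pairs the median shift was −2.3 points, and over all pairs −0.48. By class it was −6.6 for the 21 Ptpn pairs and 0.18 for the 12 Ptpr pairs, a difference that was not tested.

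**Figure D4:**
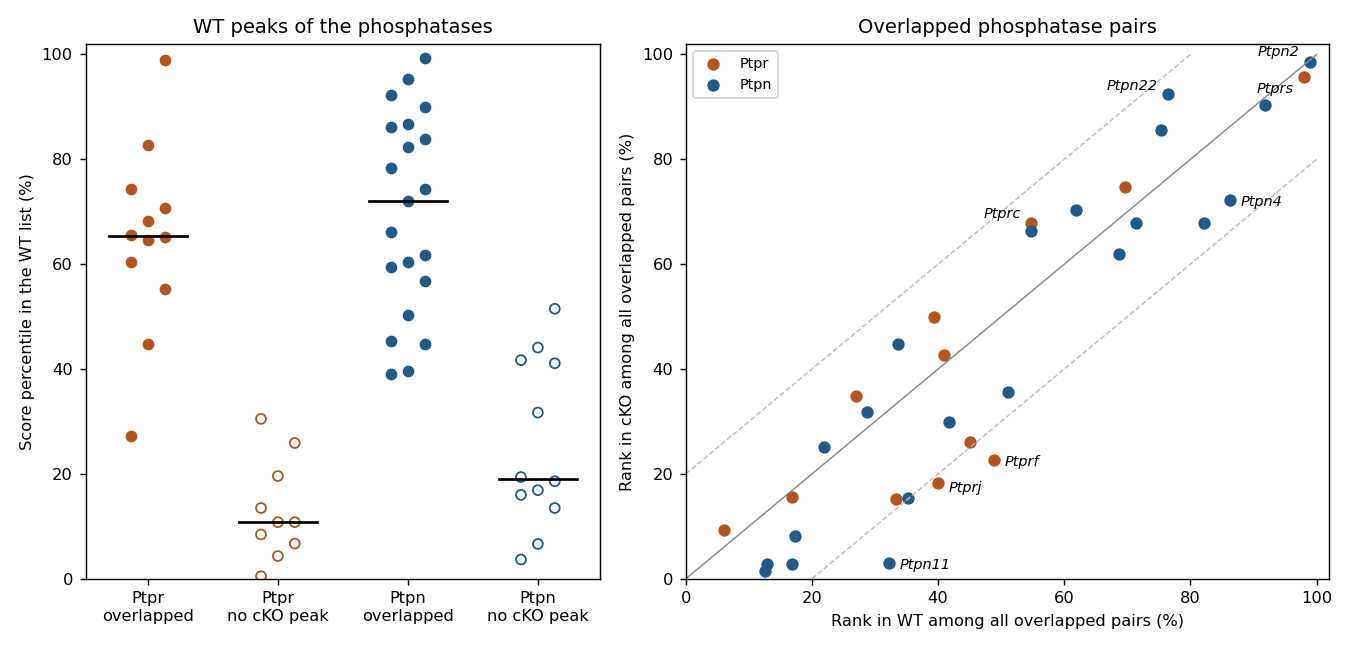
Left, score percentile in the WT list (y axis) of each WT peak of the receptor and non-receptor genes, with filled points overlapped by a cKO peak, open points not, and bars at the medians (65.4 and 10.8 for Ptpr, 72.0 and 19.0 for Ptpn). Right, rank of the overlapped phosphatase peaks among all overlapped pairs by WT score (x axis) and by cKO score (y axis), with the diagonal and dashed lines 20 points from it; Ptpn11, Ptprf and a Ptprj peak lie below the lower dashed line.

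Among the non-receptor genes that act on cytokine and antigen receptor signalling, Ptpn2 held the highest ranking PTP peak of both lists. Its promoter peak stood at percentile 99.4 in WT, with pair ranks of 99.0 in WT and 98.6 in cKO. A peak in intron 2, 24459 bp from the start, stood at percentile 50.4 and had pair ranks of 21.9 and 25.1.

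Ptpn1, the relative of Ptpn2 that acts on the insulin receptor and JAK kinases, had its strongest peak outside the promoter. That peak lay 6526 bp upstream, at chr2:167924669-167925801, at percentile 95.4, with pair ranks of 91.8 in WT and 90.4 in cKO. The promoter peak followed at percentile 89.9 (pair ranks 82.1 and 67.8), and a peak in intron 1, at chr2:167941909-167943528, at 86.1 (75.3 and 85.6). The promoter peak thus ranked above the intron 1 peak in WT and below it in cKO. Of the other 5 Ptpn1 peaks, 3 were shared, namely one 21626 bp upstream at percentile 39.1 (12.6 and 1.57) and those in intron 1 at 45.3 (17.3 and 8.09) and 44.8 (16.9 and 2.89). The remaining 2, also in intron 1, lacked a cKO partner and stood at percentiles 31.7 and 3.68.

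Ptpn22 had its strongest assigned peak at the promoter, at chr3:103859301-103860884, at percentile 86.7, with pair ranks of 76.5 in WT and 92.5 in cKO. An upstream peak in an intron of the neighbouring gene Bcl2l15, 7274 bp from the start, stood at percentile 74.3 and also ranked higher in cKO, at 54.8 and 66.4. The Ptpn22 peak 2133 bp upstream (percentile 41.7) was called in WT alone. Inside Ptpn22, 3 of 4 WT peaks assigned to other symbols were shared. One of these, at chr3:103867530-103868734, had pair ranks of 77.4 and 76.5, while those in exon 13 (42.1 and 17.7) and intron 19 (32.6 and 2.90) ranked lower in cKO.

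The SH2 domain phosphatases gave weaker peaks than Ptpn1, Ptpn2 and Ptpn22. Ptpn11 had 1 peak, at its promoter at chr5:121191201-121191972, at percentile 59.5, whose lower pair rank in cKO is given above. Within the Ptpn11 gene body lay 5 further WT peaks that the authors assigned to the predicted gene Gm42930, at percentiles 3.03 to 26.1, and none of them was shared. These peaks fell in score deciles 1, 2 and 3, where 6.68%, 14.0% and 21.1% of all WT peaks were shared. Ptpn6 had no assigned peak and none at its RefSeq promoter window. Its gene body held 2 WT peaks assigned to other genes, and both were shared. The peak at chr6:124731992-124733438, centred 5994 bp inside the gene, was assigned to the promoter of Gm20531 and stood at percentile 61.8, with pair ranks of 35.5 in WT and 26.0 in cKO. The other, in intron 11 of Ptpn6, stood at 67.2 and had pair ranks of 43.3 and 8.63. Ptpn6 is known to have separate epithelial and haematopoietic promoters, and whether either peak marks the latter was not tested.

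The relatives of Ptpn22, Ptpn12 (PTP-PEST, which acts on adhesion proteins) and Ptpn18, shared their promoter peaks, at percentiles 78.4 and 66.2. The Ptpn12 peak ranked higher in cKO (61.8 in WT and 70.4 in cKO) and the Ptpn18 peak lower (41.7 and 29.9), both within the 20 points. Among assigned PTP peaks, the unshared one with the highest score lay in exon 3 of Ptpn18, at chr1:34462855-34463514, at percentile 51.5. Next came an intergenic peak 20332 bp upstream of Ptpn13, at 44.1. Ptpn13 shared its promoter peak and 1 intron 1 peak, at percentiles 72.0 and 61.7, with pair ranks of 51.0 and 35.3 in WT and 35.6 and 15.5 in cKO. Its other peaks in intron 1 (41.1) and intron 2 (16.9) were, like the intergenic one, called in WT alone.

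Ptpn3, Ptpn4, Ptpn7 and Ptpn23 each had a promoter peak and no other assigned peak, and all 4 were shared. Ptpn4 stood at percentile 92.3, Ptpn23 (HD-PTP, an endosomal sorting protein) at 83.8, Ptpn7 at 82.3 and Ptpn3 at 56.8. The pair ranks of Ptpn4 were 86.3 in WT and 72.2 in cKO, those of Ptpn23 71.3 and 67.9, those of Ptpn7 68.7 and 62.0, and those of Ptpn3 28.8 and 31.9. None of these moved by over 20 points. Ptpn9, a PTP of secretory vesicles, shared its promoter peak at percentile 60.5 (33.6 and 44.7) and had an unshared WT peak in an exon of Snupn at 18.6.

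The members with a WT peak and no assigned cKO peak were Ptpn5, Ptpn14 and Ptprv, 3 of 23 genes, against 19.9% of the protein-coding symbols with a WT peak. Ptpn5 (STEP, a neuronal PTP) had a promoter peak at percentile 13.5, and Ptpn14, a PTP of the Hippo pathway, had 2 intron peaks at 16.0 and 19.4. Ptprv, which RefSeq lists as a transcribed pseudogene next to Ptpn7, had an exon peak at 10.8. All 4 peaks ranked in score decile 2 of the WT list, where 14.0% of all peaks were shared. The bodies of all 3 genes also held a shared peak with another assigned symbol, in Ptpn5 at percentile 55.6 (pair ranks 27.3 and 30.1) and in Ptpn14 at 46.4 (18.3 and 21.6). Ptpn5 held 4 such WT peaks, of which 1 was shared, and those at percentiles 27.1, 36.7 and 51.5 were not.

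Among receptor genes, Ptprs had the strongest peak, at its inner start, with pair ranks of 98.0 in WT and 95.7 in cKO. A peak 2741 bp from another Ptprs start, at percentile 68.3 (45.1 and 26.1), and an intron 6 peak at 55.3 (27.0 and 34.9) were also shared. The 3 unshared Ptprs peaks ranked at 0.491, 6.72 and 10.8 in WT. Ptpra, which acts on Src-family kinases, and Ptpru, a homophilic adhesion PTP, had a shared promoter peak each, at percentiles 82.8 and 64.7. Their pair ranks were 69.6 in WT and 74.7 in cKO for Ptpra and 39.4 and 50.0 for Ptpru.

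The Ptprc promoter peak, at chr1:138174174-138175901, stood at percentile 74.3, with pair ranks of 54.8 in WT and 67.8 in cKO. A second peak 2362 bp inside the gene (25.9) was called in WT alone. The assigned gene missed most open regions of this locus. Within the Ptprc gene body lay 12 further WT peaks that carried the symbol A130071D04Rik, a transcript inside Ptprc, and 6 of them were shared. The strongest of these lay in intron 2, at chr1:138135740-138137690, at percentile 80.3, with pair ranks of 65.2 in WT and 56.3 in cKO. It ranked above the Ptprc promoter peak in WT and below it in cKO. A weaker intron 2 peak, at chr1:138144009-138145518, ranked higher in cKO, at 20.3 and 54.4. With these, Ptprc held 14 WT peaks, of which 7 were shared.

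Ptprj shared 3 of 5 assigned peaks, namely those in exon 2 at percentile 65.1 (pair ranks 40.0 in WT and 18.2 in cKO), 2823 bp upstream at 60.4 (33.4 and 15.3) and 335 bp upstream at 44.8 (16.9 and 15.6). A peak 518 bp inside the gene (8.45) and one in intron 1 (30.5) were called in WT alone. The latter was the highest of the unshared peaks assigned to a receptor gene, followed by that of Ptprc at 25.9. A further 5 WT peaks in the same intron, assigned to 4933423P22Rik at 6.64 to 53.3, had no cKO partner. In their score deciles (1, 2, 4, 5 and 6), 6.68%, 14.0%, 32.0%, 47.0% and 63.3% of all WT peaks were shared. Ptpre shared 2 of 4, its outer promoter at percentile 27.2 (6.11 and 9.22) and an intron 1 peak at 65.6 (40.9 and 42.6). A peak inside Ptpre assigned to 5830432E09Rik stood at 81.3 and had pair ranks of 66.9 and 80.8.

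**Figure D5:**
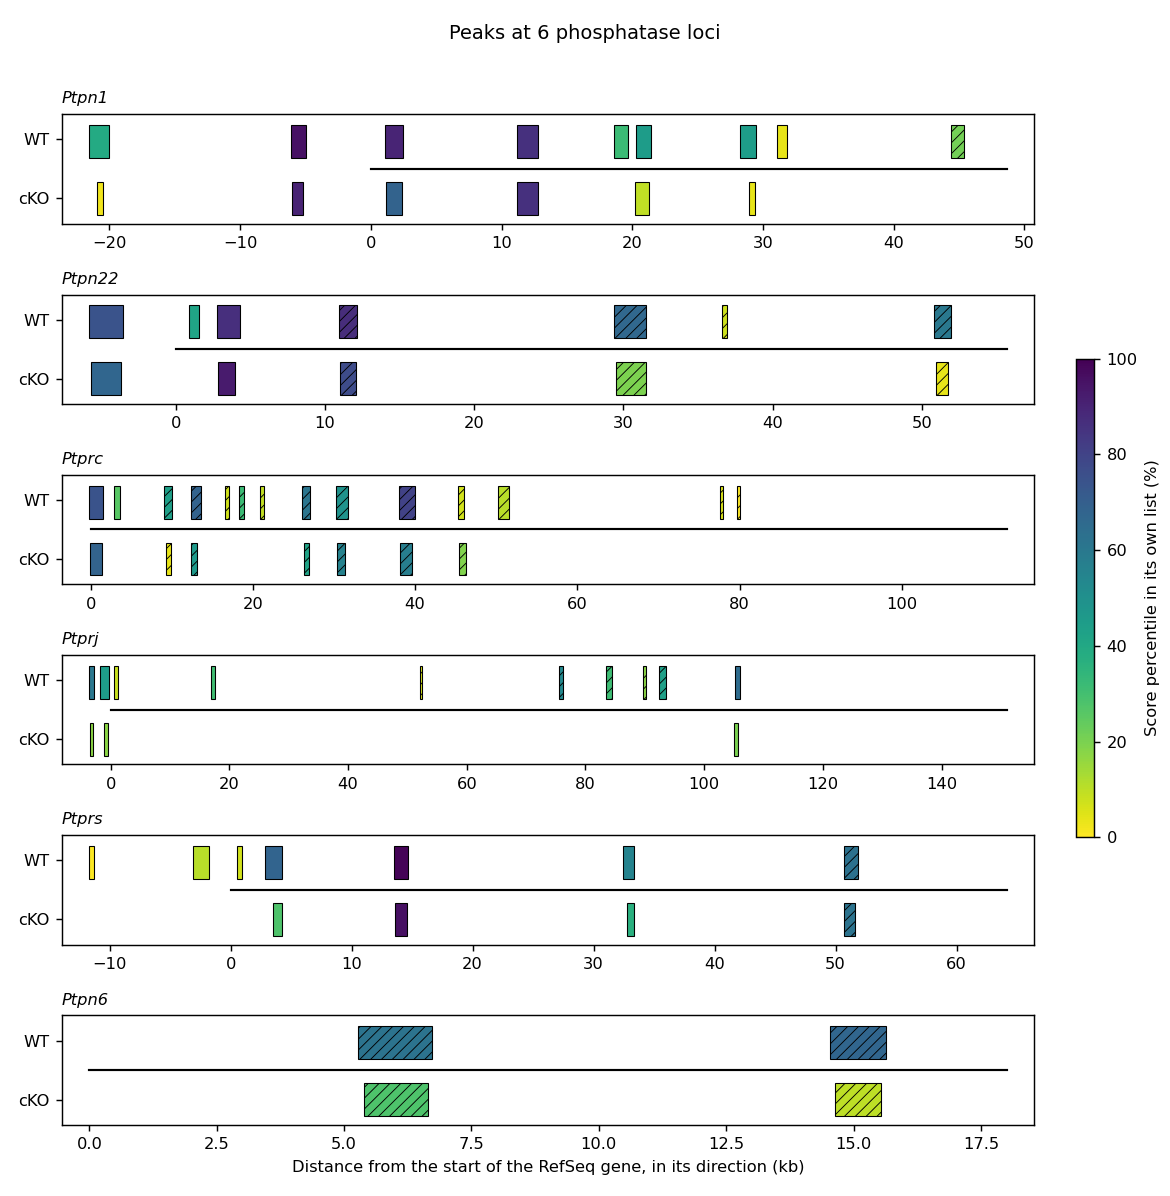
Peaks at 6 phosphatase loci by distance from the start of the RefSeq gene in kb (x axis, scaled separately for each gene); the black line is the gene, boxes above it are WT peaks and below it cKO peaks, coloured by score percentile within their own list (colours of the 2 lists are not comparable), and hatched boxes lie in the gene but were assigned to another gene. Ptprc shows 14 WT and 7 cKO peaks, of which 12 and 6 are hatched, and both Ptpn6 peaks are hatched.

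Assignment to another symbol was frequent in these genes. Of 103 WT peaks that overlapped the body of a protein-coding PTP gene, 59 (57.3%) carried a symbol other than that of the PTP, against 32.2% of 23797 WT peaks in protein-coding gene bodies. Counting assigned peaks and peaks in the gene body, 28 of the 38 genes had a WT peak and 27 a cKO peak. On this count 59 of 115 WT peaks were shared (51.3%, 42.3 to 60.2), against 56.1% of all WT peaks. Of the body peaks assigned to genes outside the rule, 26 of 60 were shared (43.3%), where WT peaks of like group and score gave 42.2%. Of these 26 shared peaks, 4 ranked lower in cKO by over 20 points and 4 higher, against 5.70% and 6.67% of all pairs, and the difference was not tested. The lower ones lay in Ptpn6, Ptpn13 and Ptpn22, and the higher ones in Ptpn3, Ptprc, Ptprk and Ptprs. The genes added were Ptpn6, Ptprh, Ptprk, Ptprn and Ptprn2. Ptprk, a homophilic adhesion PTP, held 5 WT peaks assigned to its neighbour Themis, a T cell gene, of which 3 were shared. Ptprn2 was the gene with WT peaks and no cKO peak on this count, with 3 peaks assigned to Gm17807 at percentiles 15.8 to 32.2. The genes without any peak were Ptpn20, Ptprb, Ptprd, Ptprg, Ptprm, Ptpro, Ptprq, Ptprr, Ptprt and Ptprz1, of which 9 are receptor PTPs.

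Lists of genes that work with the PTPs in T cells were described in the same way, with no test between lists. Of 32 tyrosine kinases, antigen receptor chains, adaptors and STAT proteins, 30 had a WT peak, against 52.5% of protein-coding symbols, and the same number had a cKO peak, against 42.5%. They shared 86 of 130 WT peaks (66.2%, 57.7 to 73.7), an interval above the 56.1% of all WT peaks, where WT peaks of like group and score gave 59.9%. Fyn, a Src-family kinase, shared 9 of 13 and Ptk2b, a focal adhesion kinase relative, 8 of 14, while Jak2 had 5 unshared peaks of 10. Of 17 receptors and adaptors that recruit SH2 domain phosphatases, 14 had a WT peak and shared 24 of 37 (64.9%, 48.8 to 78.2), where like peaks gave 59.4%. Pecam1 shared 5 of 7, Pdcd1, which encodes PD-1, 3 of 5, and Dok2 3 of 3.

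The targeted gene, Tkt, had 1 peak in each list, at its promoter, with pair ranks of 78.1 in WT and 66.8 in cKO, and a promoter peak does not check the deletion. The lists covered 36.0 Mb in WT and 20.7 Mb in cKO, with median peak widths of 977 and 974 bp. Peaks lay at 5 of 6 Treg markers in both libraries (Tnfrsf18 had none) and at all 5 T cell markers. For other cells, 3 of 6 B cell, 3 of 7 myeloid and 3 of 7 CD8 T and NK markers had a WT peak, with 6, 5 and 6 WT peaks and 2, 4 and 5 cKO peaks. Over all protein-coding symbols, 52.5% had a WT peak and 42.5% a cKO peak, so such small counts say little about purity. The B cell genes Ms4a1 and Pax5, the myeloid genes Itgam, Csf1r and Cd68 and the CD8 T and NK genes Cd8a, Ncr1 and Klrd1 had none in either library. Peaks did lie at Fcgr3 (percentile 94.9 in WT), Adgre1 (84.5) and Klrb1c (86.6), all shared at least in part and above the strongest Foxp3 peak (66.1). The B cell genes Cd79a (63.4) and Ebf1 (34.8) and the CD8 T and NK genes Cd8b1 (53.1) and Eomes (18.7) had 1 shared WT peak each. Cd79b had 4 WT peaks and Spi1 had 1, with no cKO peak, while Lyz2 and Gzma had 1 cKO peak each and no WT peak. The part of such cells in the PTP peaks was not tested.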

How the data were processed

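ATAC-seq peak lists of 1 WT and 1 TKT cKO Treg library were used, grouped by sample title. BWA, MACS2, Trimmomatic, FastQC and build mm10 are named, per the submitters' processing notes. The sources used here give no versions, caller settings, read shifting, duplicate removal or annotation tool. The authors deposited, for each peak called per library, its position (counted from 1), a score, an annotation class and 1 assigned gene. The score deposited by the authors is not explained by the file headers and moves with depth, so it was used only for ranks within a list.

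A peak was shared when a peak of the other list overlapped it by at least 1 bp. The overlap code was tested on simulated data and compared with bedtools 2.31.1, which differed at 0 of 34440 peaks. Python 3.11.15, pandas 2.3.3 and statsmodels 0.14.6 were used. Wilson and Newcombe 95% intervals cover counting error only, since 1 library per genotype gives no spread between libraries. They also treat peaks as independent, although peaks of 1 gene share their source. Like-peak shares are means over all WT peaks of the same group (promoter or other) and score decile. Gene bodies and promoter windows come from RefSeq (GRCm38.p6). Of 13827 transcripts the authors assigned, 99.9% overlapped the RefSeq gene of the same symbol.

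All 38 members are accounted for. Values are given for every assigned peak of members with 5 or more WT peaks, a top decile peak, no cKO peak, or the highest unshared scores of their class. Other members were described after their values were seen, and in the other lists the genes named are among those with most shared or most unshared peaks. The members and lists were chosen with earlier results of these data known.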

Additional observations from a re-analysis of the deposited data

How the results depend on the processing

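Of 56 values recomputed under 7 other settings, 45 stayed within the interval of the main value or, for counts and medians, within 1.5 times of it. With equal numbers of peaks, taking the strongest WT peaks, the shared WT peaks rose to 93.8% for all PTP genes, against 83.0% of all WT peaks. They rose to 100% for Ptpr (11 of 11) and 90.5% for Ptpn (19 of 21), and 0 genes with a WT peak lacked a cKO peak. With scores at or above the median of each list, 8 of 19 genes lacked one, with 14 of 33 cKO peaks remaining. The shared WT peaks were then 50% for all PTP genes (32.6 to 67.4), 40% for Ptpr and 55.6% for Ptpn. The same shares over all genes and peaks were not taken for this cut. Counting peaks in the gene body, a setting chosen after the data were seen, left 1. The median WT peaks per gene fell to 1 for Ptpr and 1 for Ptpn under the first 2 settings, and to 1 for Ptpn within 10 kb of the start site. The class difference was 0.478 points without WT peaks narrower than every cKO peak, −9.52 with equal numbers, and 3.75 points without Ptprs and Ptpn1, the genes with most peaks. Overlap of at least 50% of the shorter peak changed none of the 8 results. No paired analysis was possible because only 1 library stands for each genotype, which also left no replicate to omit. Depth is unknown and limits every count of missing peaks.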

Other observations

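Tyrosine phosphatases and relatives named otherwise had a peak at 17 of 21 genes in WT, against 52.5% of protein-coding symbols, and at 15 in cKO, against 42.5%. They shared 30 of 48 WT peaks (62.5%, 48.4 to 74.8), against 56.1% of all WT peaks and 59.8% of WT peaks of like group and score. Eya3, a phosphatase and transcriptional cofactor, shared 5 of 7 peaks, and Ubash3b, which encodes an STS protein that acts on Zap70 and Syk, shared 4 of 8. Ptp4a3, a prenylated PTP, had 4 WT peaks, the strongest at percentile 39.9 of the WT list, and no cKO peak. With Ssh3, 2 of the 17 genes with a WT peak had no cKO peak, against 19.9% of such protein-coding symbols.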
